A study of Homo sapiens with 12 samples.

Results

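The 35 genes described here encode the machinery that cuts a nascent RNA at its poly(A) site, adds the poly(A) tail, binds that tail and releases RNA polymerase II from the gene. They were taken by symbol from a fixed list of factors and all 35 were present among the 26058 genes of the deposited table, of which they are a small share. All 35 also passed the filter of a mean of at least 0.5 RPKM (reads scaled by gene length and by a size set for each library), which 22067 genes passed. The list falls into 11 sub-lists by complex or role.

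RNA was measured in HEK293 cells, an established human embryonic kidney line, labelled WT, and in the HEK293 derivative labelled AMPK KO, in which CRISPR was used against both catalytic subunit genes of AMP-activated protein kinase (PRKAA1 and PRKAA2). Every group was starved of serum for 24 h. The WT DMSO and AMPK KO DMSO groups received the solvent (0.025%) without growth factor. The WT DMSO+EGF and AMPK KO DMSO+EGF groups received the solvent for 20 min and then epidermal growth factor (EGF) for 30 min. The WT cordycepin+EGF and AMPK KO cordycepin+EGF groups received 25 µM cordycepin for 20 min and then EGF for 30 min, 50 min in all. Each of these 6 groups had 2 libraries, numbered 2 and 3, which makes 12. The knockout was 1 derivative, so a difference between lines cannot be told apart from a difference between any 2 cultures of separate history, and the study called the replicates biological without saying what was separate between them. Libraries held 12664231 to 26411866 recovered reads on listed genes, except WT DMSO replicate 3 with 4002546. The HEK293 markers NEFL, INA, SALL2 and LIN28B lay between 5.55 and 33.7 RPKM in every library, NEFM and PAX2 never exceeded 0.85 RPKM, and PTPRC, a leukocyte gene, never exceeded 0.061 RPKM. COL1A1, a collagen gene of fibroblasts, was at 0.35 to 1.21 RPKM, with 1.21 and 1.19 RPKM in WT DMSO+EGF and 0.40 and 0.38 in AMPK KO DMSO+EGF, and its part in the differences between these groups was not tested. PRKAA1 had 21.9 and 15.4 RPKM in WT DMSO and 7.62 and 7.37 RPKM in AMPK KO DMSO (log2 fold change -1.26, SE 0.167, p 3.66e-05, adjusted p 0.0228), and PRKAA2 had 12.1 and 7.97 against 5.59 and 6.08 RPKM (log2 fold change -0.73, SE 0.202, p 0.00572, adjusted p 0.112), so transcripts of both genes remained.

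Cleavage and polyadenylation begins when the cleavage and polyadenylation specificity factor (CPSF) binds the poly(A) signal of a nascent RNA, while cleavage factor I (CFIm) binds upstream and the cleavage stimulation factor (CstF) binds downstream of the cut. The endonuclease CPSF3 cuts, a poly(A) polymerase adds the tail, and the exonuclease XRN2 degrades the RNA still being made until the polymerase is released. Cordycepin is 3′-deoxyadenosine. It lacks the hydroxyl group to which the next nucleotide would be joined, and its triphosphate is known as a chain terminator of polyadenylation. The question for these genes was whether the messengers of the machinery itself moved with EGF, with cordycepin or with the loss of AMPK.

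The poly(A) signals of the members' own messengers are shown first, because this is the element that the CPSF subunits CPSF4 and WDR33 bind. The last 40 bases of each member's MANE Select transcript (GENCODE release 44, GRCh38) were searched for the canonical hexamer AATAAA and, where that was absent, for its common variant ATTAAA. The canonical hexamer was present in 27 of the 35 members (77.1%), against 65.2% of 14570 genes with such a transcript. The variant was present in 2 members (5.71%), CPSF4 and ZC3H14, against 15.0% of all. In 6 members, CPSF1, FIP1L1, SYMPK, SCAF4, SCAF8 and INTS11, neither hexamer was found in this window (17.1%, against 19.9% of all). The stretches below, of 30 bases and written as DNA 5′ to 3′ with the hexamer in capitals, belong to the 5 members with a hexamer among the 7 that lay lower under cordycepin in the mean of both lines at an unadjusted p under 0.05, and to CPSF4 as an example of the variant. They were chosen after their values were seen.
NUDT21 (chr16:56429133-56429162, minus strand): tcatttcAATAAAaaatatttgaaagagaa
PAPOLA (chr14:96567087-96567116, plus strand): acacAATAAAaaaaaaacagcacaatctca
XRN2 (chr20:21389796-21389825, plus strand): aaaaaaAATAAAgttaaacttttaaaactc
TENT4B (chr16:50235277-50235306, plus strand): AATAAAggctttgtgttttcatttatcttc
CPEB2 (chr4:15070122-15070151, plus strand): actgactAATAAActattaagttattggca
CPSF4 (chr7:99457344-99457373, plus strand): ttatgaaatggATTAAAgcttgttttttaa
SCAF4 and SCAF8, the other two of the 7, held neither hexamer in this window. Among the 27 members with the canonical hexamer the median log2 fold change with cordycepin was -0.07 in WT and -0.18 in AMPK KO cells. Among the 6 with neither it was -0.14 and -0.19, and this was not tested. Among tested genes with a MANE Select transcript, 8258 with the canonical hexamer and 2506 with neither, the order was the other way by small margins. There the medians in WT and AMPK KO cells were -0.01 and -0.03 with the canonical hexamer and 0.03 and -0.02 with neither.

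Promoter windows (RefSeq, GRCh38.p14, 250 bases before to 50 after each start) were matched for 29 of the 35 members. Of 5 motifs searched on both strands, the ETS core CCGGAAGT was held by 8 of the 29 members (27.6%, against 4.95% of 27305 genes), and the cyclic AMP response element TGACGTCA by 4 (13.8%, against 2.25%). The EGR motif GCGGGGGCG was held by 2 members (6.90%, against 6.14%), the NRF1 motif GCGCATGCG by 2 (6.90%, against 2.34%), and TATAAA by 1, ZC3H14 (3.45%, against 14.0%). The median GC content of the windows was 63.3% for members and 58.3% for all genes, and both leading motifs hold CG. CSTF3, the scaffold of CstF, held both leading motifs in 1 window, shown with the 2 motifs in capitals.
CSTF3 (chr11:33161431-33161730, minus strand): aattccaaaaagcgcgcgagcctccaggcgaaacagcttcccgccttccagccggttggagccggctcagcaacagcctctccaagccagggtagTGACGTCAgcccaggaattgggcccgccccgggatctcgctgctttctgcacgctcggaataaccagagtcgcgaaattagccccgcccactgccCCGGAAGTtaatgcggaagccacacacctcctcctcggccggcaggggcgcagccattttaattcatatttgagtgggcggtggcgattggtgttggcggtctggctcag
A match describes letters and not a bound site, and CSTF3 itself had 8.84 to 11.9 RPKM in all libraries, with no difference at an unadjusted p under 0.05 in any of the 12 comparisons.

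The machinery was expressed throughout at levels that spanned nearly 2 orders of magnitude. PABPC1, the main cytoplasmic poly(A)-binding protein, had a mean of 111 RPKM over the 12 libraries (88.3 to 127), above every other member. XRN2 followed at 52.5 RPKM (40.2 to 65.2) and PAPOLA, the main nuclear poly(A) polymerase, at 40.2 RPKM (31.6 to 51.3). The libraries of XRN2 and PAPOLA overlapped, as did those of the next members SCAF4, CPSF6, SCAF8, PABPC4 and SSU72, whose means ran from 31.1 down to 27.1 RPKM. At the other end lay PAPOLG at 2.81 RPKM (2.03 to 3.88), TUT1 at 2.54 RPKM (1.92 to 3.38) and CPEB2 at 1.64 RPKM (1.08 to 2.28). RPKM is per length of all annotated exons, so a gene with long unused exons reads low. The median member had 13.7 RPKM, against 3.63 RPKM for all genes tested. In the shallow WT DMSO replicate 3 the members rested on 35 reads (TUT1) to 4881 reads (PABPC1), and 3 members rested on fewer than 50, the other two being CLP1 with 46 and CPEB2 with 48.

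Members varied little among the libraries. After scaling each library by its upper quartile, the highest library of a member exceeded its lowest by a median of 1.45-fold, from 1.17-fold for WDR33 to 2.66-fold for PABPN1, where the median of all genes tested was 2.18-fold. All genes include many at low levels, where counting error is larger. The plot of every member in every library shows this narrow range and the few cells that leave it.

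**Figure D1:**
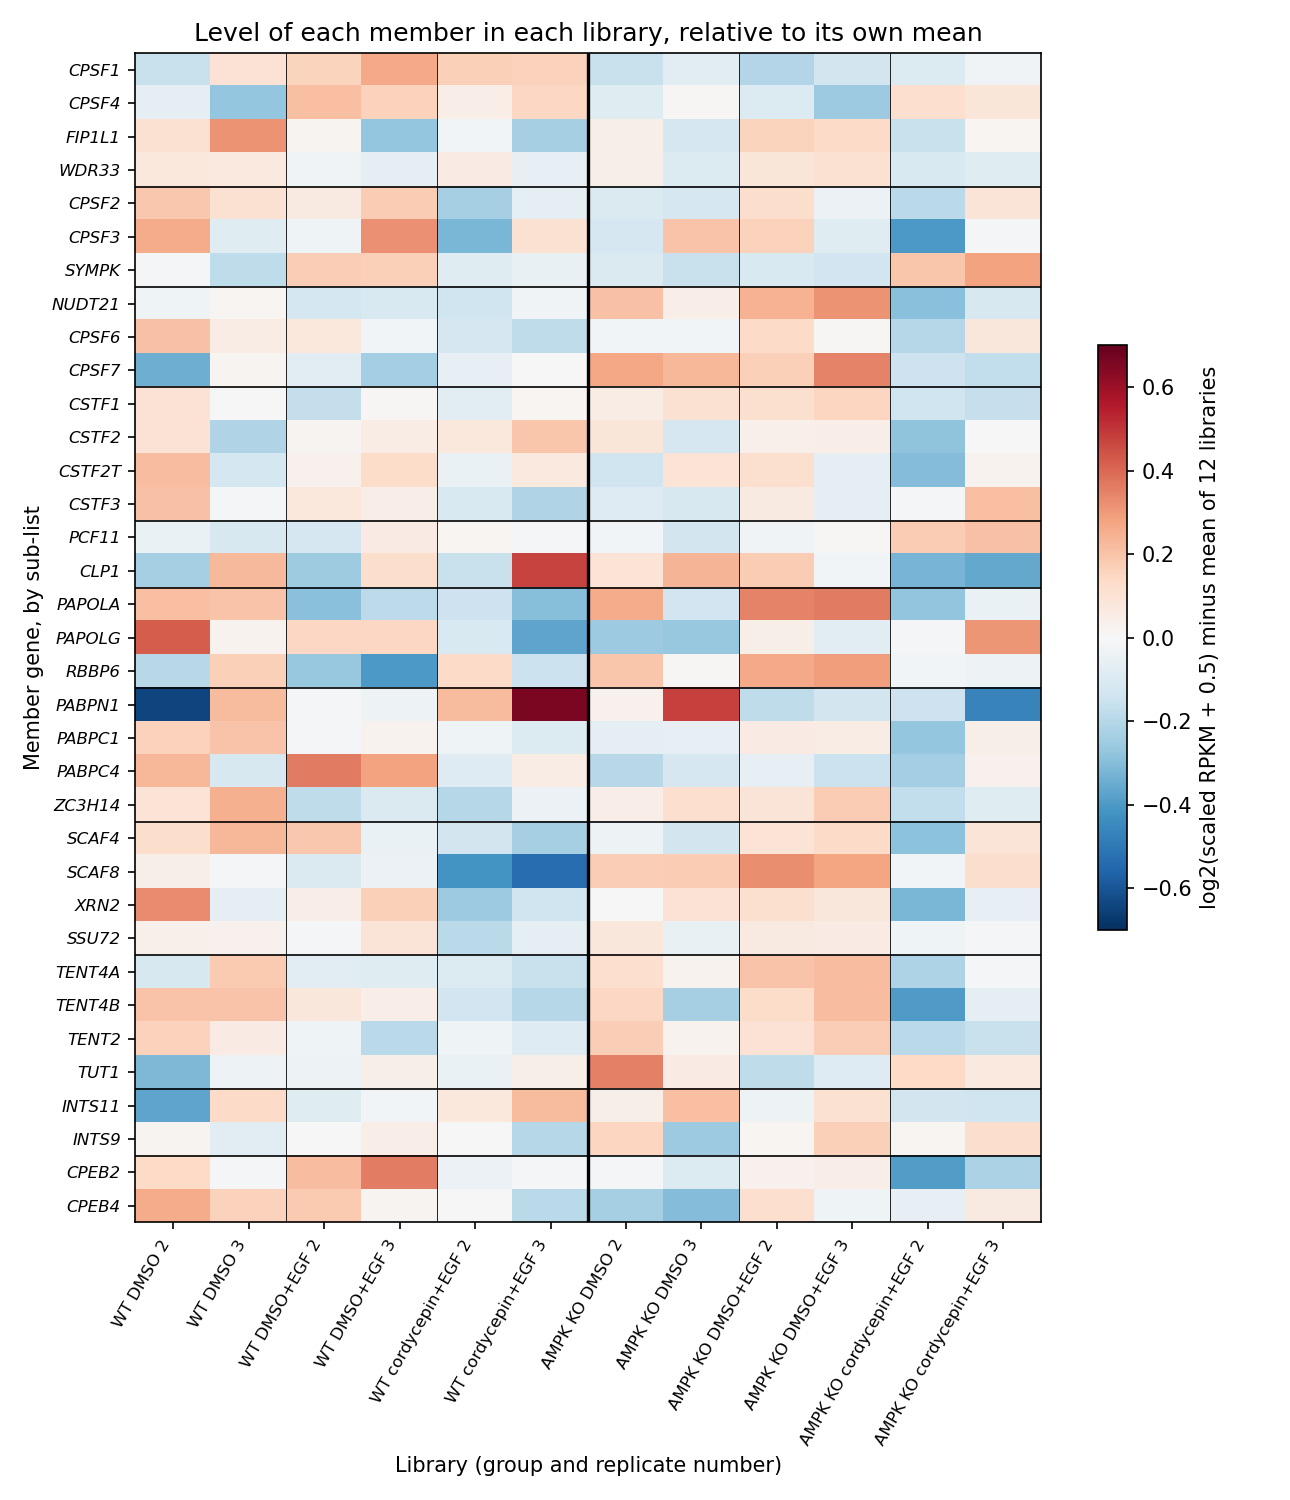
Each row is a member and each column a library, and colour gives log2(scaled RPKM + 0.5) minus the member's mean over the 12 libraries, with sub-lists separated by lines. PABPN1 had the widest spread, 2.66-fold from its lowest to its highest library, and SCAF8 was blue in both WT cordycepin+EGF libraries, at 20.8 and 19.6 RPKM.

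Differences were tested with limma on log2(scaled RPKM + 0.5) in 1 fit of all 12 libraries, and p-values were adjusted by Benjamini-Hochberg over all 22067 genes within each of 12 comparisons. A log2 fold change of 1 is a doubling. The test was passed (adjusted p under 0.05) by 1 member in 1 comparison: SCAF8 was higher in AMPK KO cells in the mean of the 3 treatments, where 4.34% of all genes tested passed. In the other 11 comparisons 0 members passed. The share of all genes that passed there was 0.0227% for EGF in WT, 0.0136% for EGF in AMPK KO and 0.0227% in the mean of both lines. It was 0.00453% for cordycepin in WT, 0.471% for cordycepin in AMPK KO and 0.965% in the mean of both lines. For AMPK KO against WT it was 0.44% in DMSO, 1.74% in DMSO+EGF and 0.118% in cordycepin+EGF, and it was 0% for both interactions (the difference between lines of the EGF response, and of the cordycepin response). The 95% interval of the log2 fold change lay within -1 and 1 for all 35 members for EGF in WT and for cordycepin in AMPK KO, and for 34 of 35 for EGF in AMPK KO and for cordycepin in WT. The limits of these 4 sets of intervals lay a median of 0.30 from the estimate. For AMPK KO against WT it did so for 34 members in DMSO, all 35 in DMSO+EGF and over the 3 treatments, and 33 in cordycepin+EGF, where the lowest limit was -1.39. Both interactions were less precise, with 31 of 35 intervals inside these bounds and limits down to -1.51 for EGF and -1.52 for cordycepin. At an unadjusted p under 0.05, by contrast, the members gave 58 differences over the 12 comparisons, and apart from SCAF8 over the 3 treatments these did not pass adjustment. All 58 kept their sign in every alternative setting run, many of which leave a difference nearly unchanged. Groups of 2 libraries often did not overlap. Of 22067 genes, 6451 lay higher and 5441 lower without overlap for cordycepin in WT, and 7098 and 5967 in AMPK KO. For EGF these were 4116 and 3976 in WT, and 4449 and 4124 in AMPK KO. For AMPK KO against WT they were 5579 and 5124 in DMSO, 6897 and 6981 in DMSO+EGF, and 5220 and 4879 in cordycepin+EGF.

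SCAF8 (ENSG00000213079, chr6:154733378-154834244, plus strand) encodes a protein that binds the phosphorylated tail of RNA polymerase II and is known, with its relative SCAF4, for preventing early termination. In WT cells it had 29.2 and 28.5 RPKM with DMSO, 26.9 and 28.5 with DMSO+EGF and 20.8 and 19.6 with cordycepin+EGF. The AMPK KO libraries had 32.4 and 33.1 RPKM with DMSO, 36.2 and 34.9 with DMSO+EGF and 27.3 and 30.5 with cordycepin+EGF. Both AMPK KO libraries lay above both WT libraries within each treatment, and the cordycepin libraries were the lowest of each line. The mean difference between lines was 0.35 on the log2 scale (SE 0.0552, 95% interval 0.23 to 0.48, adjusted p 0.0108). Over 24 alternative settings it was 0.33 to 0.38 and passed under 22. It did not pass without AMPK KO DMSO+EGF replicate 2 (log2 fold change 0.34, adjusted p 0.0556) or replicate 3 (0.36, adjusted p 0.0513). With the GC correction described below it was 0.34 (adjusted p 0.0124). Within treatments the difference did not pass: it was 0.16 in DMSO (adjusted p 0.358), 0.37 in DMSO+EGF (adjusted p 0.0774) and 0.53 in cordycepin+EGF (p 0.000386, adjusted p 0.13). The span of SCAF8 overlaps that of TIAM2 on the same strand, so reads in any shared exon are uncertain.

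EGF was compared with DMSO to see whether 30 min of growth factor altered the machinery. In WT cells 2 members lay higher at an unadjusted p under 0.05, CPSF4 and SYMPK, where 6.18% of all genes did, and 2 lay lower, PAPOLA and ZC3H14, where 3.53% of all genes did. CPEB4 alone reached this level in AMPK KO cells, against 2.42% of all genes in either direction, and in the mean of both lines 0 members did, against 3.53%. These shares of members, 5.71% in each direction in WT and 2.86% in AMPK KO cells, are near the background. The median log2 fold change of the members was -0.03 in WT (all genes 0.02), with 14 members above 0 and 21 below. For AMPK KO cells the median was 0.07 (all genes 0.01), with 28 above 0 and 7 below. The polymerase sub-list (PAPOLA, PAPOLG and RBBP6) had 3 of 3 members below 0 in WT and 3 of 3 above 0 in AMPK KO cells, with medians of -0.32 and 0.24.

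The EGF differences of the members were ordered by the GC content of their transcripts, in opposite directions in the lines. In WT cells the log2 fold change over the 35 members had a Pearson r of 0.634 with GC content (Spearman rho 0.606), and in AMPK KO cells r was -0.588 (rho -0.555). Over 22044 genes r was 0.307 and -0.243. These are correlations across genes that share the same 2 libraries per group, given as a description, and the part of GC content in the responses was not tested beyond the correction that follows. PAPOLA, at 39.4% GC, had an EGF log2 fold change of -0.44 in WT, but 0.29 in AMPK KO cells, while CPSF4, at 57.4% GC, had 0.36 and -0.14. After each library was corrected for GC content, an alternative chosen after seeing the data, 0 of the 4 members in WT cells and not CPEB4 in AMPK KO cells kept an unadjusted p under 0.05. The corrected values in WT were 0.20 for CPSF4, 0.07 for SYMPK, -0.32 for PAPOLA and -0.20 for ZC3H14.

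**Figure D2:**
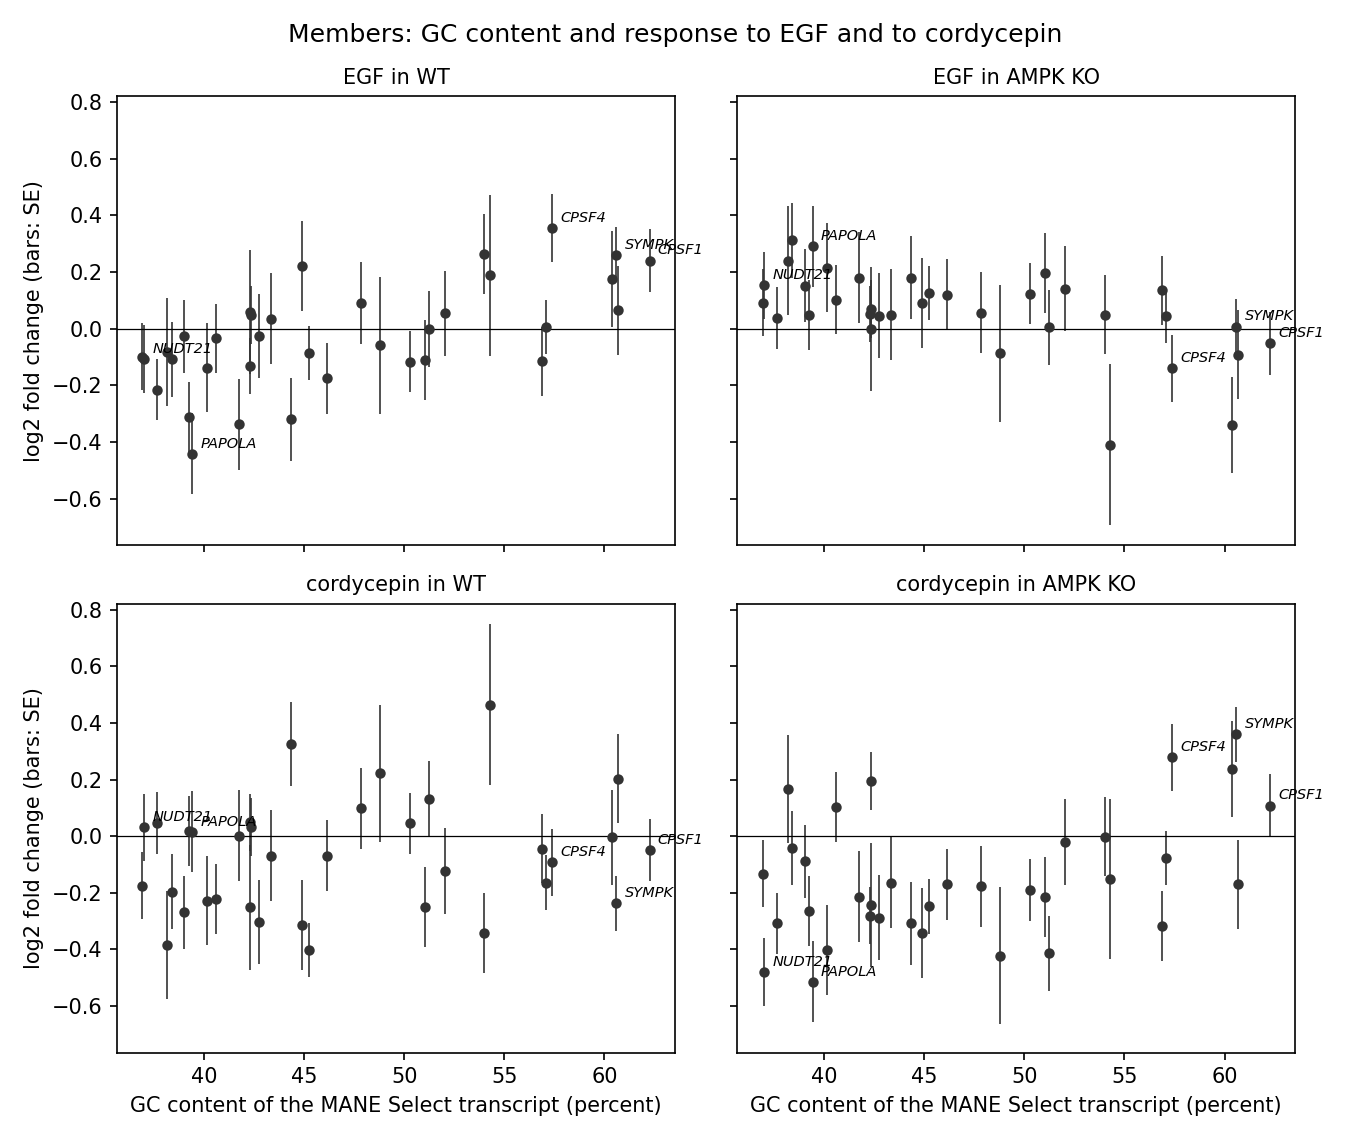
Each point is 1 of the 35 members, with the GC content of its MANE Select transcript (percent) on the horizontal axis and the log2 fold change with its SE on the vertical axis, for EGF and for cordycepin in each line. The EGF panels slope upwards in WT and downwards in AMPK KO, with r of 0.634 and -0.588.

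The EGF interaction, the AMPK KO response minus the WT response, reached an unadjusted p under 0.05 for 4 members, against 8.69% of all genes. PAPOLA, FIP1L1 and RBBP6 had interactions of 0.73 (p 0.00558, adjusted p 0.569), 0.52 and 0.50, and CPSF4 had -0.50. The members' r with GC content was -0.684 here. With the GC correction PAPOLA was 0.53 (p 0.0285) and the other 3 were no longer under 0.05.

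Cordycepin with EGF was compared with DMSO with EGF. In WT cells 0 members lay higher at an unadjusted p under 0.05, against 8.86% of all genes, and 3 lay lower, SCAF8, PABPC4 and SYMPK, against 7.13%. For AMPK KO cells 2 lay higher, SYMPK and CPSF4, against 11.7%, and 8 lay lower, against 10.1%: NUDT21, CPSF7, CSTF1, PAPOLA, SCAF8, TENT4A, TENT4B and TENT2. In the mean of both lines 0 lay higher, against 10% of all genes, and 7 lay lower, against 5.25%: SCAF8, CPEB2, TENT4B, XRN2, SCAF4, PAPOLA and NUDT21. The WT share of 8.57% lower is near its background. The 22.9% in AMPK KO cells and the 20% in the mean are 2.26 and 3.81 times the share of all genes, but no member passed adjustment. Both counts also moved, down or up, with the library left out. Each such fit leaves 1 library in a group and so is less precise there. The 8 members lower in AMPK KO cells became 4 without AMPK KO cordycepin+EGF replicate 2. Leaving out an AMPK KO DMSO+EGF library gave 4 (replicate 2) or 2 (replicate 3), and leaving out either WT DMSO library gave 12. The 7 members lower in the mean became 2 without AMPK KO cordycepin+EGF replicate 2, 11 without AMPK KO cordycepin+EGF replicate 3, and 3 or 4 without any 1 of the DMSO+EGF or WT cordycepin+EGF libraries. The 3 members lower in WT cells ranged from 1 to 5. Over the members, r with GC content was 0.415 for cordycepin in AMPK KO cells and 0.506 in the mean of both lines (0.116 and 0.198 over all genes). After the GC correction CPSF4 in AMPK KO cells (p 0.258) and NUDT21 (p 0.152) and PAPOLA (p 0.0694) in the mean were no longer under 0.05. Other members came under it, so the numbers lower did not fall. They were then 4 lower and 1 higher in WT, 9 lower and 1 higher in AMPK KO cells, and 7 lower in the mean. The corrected medians of the members were -0.14, -0.23 and -0.10.

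The median member was lower with cordycepin than the median gene in both lines. The members' median log2 fold change was -0.18 in AMPK KO cells (all genes 0.06), with 28 of 35 members below 0. It was -0.07 in WT cells (all genes 0.03), with 21 below 0. Both medians of all genes were above 0, so a minority of all genes lay below 0. Below the medians of all genes lay 28 members in AMPK KO and 26 in WT cells. Tested genes with a MANE Select transcript, as all members have, had lower medians than all genes in AMPK KO cells. They were -0.03 with AATAAA, -0.05 with ATTAAA and -0.02 with neither hexamer. In WT cells the medians of these genes were -0.01, -0.02 and 0.03. The WT number of members below 0 was 26 with RPKM as deposited or median-ratio scaling and 19 with voom on the recovered reads. With the GC correction the AMPK KO number was again 28. Voom took the recovered totals as library sizes without further scaling, and the median of all genes was then 0.08 in WT cells. Below that median lay 25 members. In AMPK KO cells, where it was 0.18 with voom, 23 members lay below 0 and 28 below that median. The main AMPK KO number of 28 below 0 rested partly on 1 library, being 22 (median -0.07) without AMPK KO cordycepin+EGF replicate 2. Leaving out replicate 3 instead gave 28 and a median of -0.30. In AMPK KO cells the CFIm, poly(A)-binding, termination, Integrator nuclease and CPEB sub-lists lay wholly below 0. In WT cells the CPSF nuclease, termination and CPEB sub-lists did. Most members lay below 0 in each line, so this is no trait particular to these small sub-lists. PABPC4, for example, overlapped in AMPK KO cells, at 23.3 and 28.5 RPKM with cordycepin+EGF and 27.6 and 25.8 with DMSO+EGF. Levels are relative to the other RNA of a library, and in bulk samples fewer cells expressing a gene and less of its RNA per cell cannot be told apart.

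**Figure D3:**
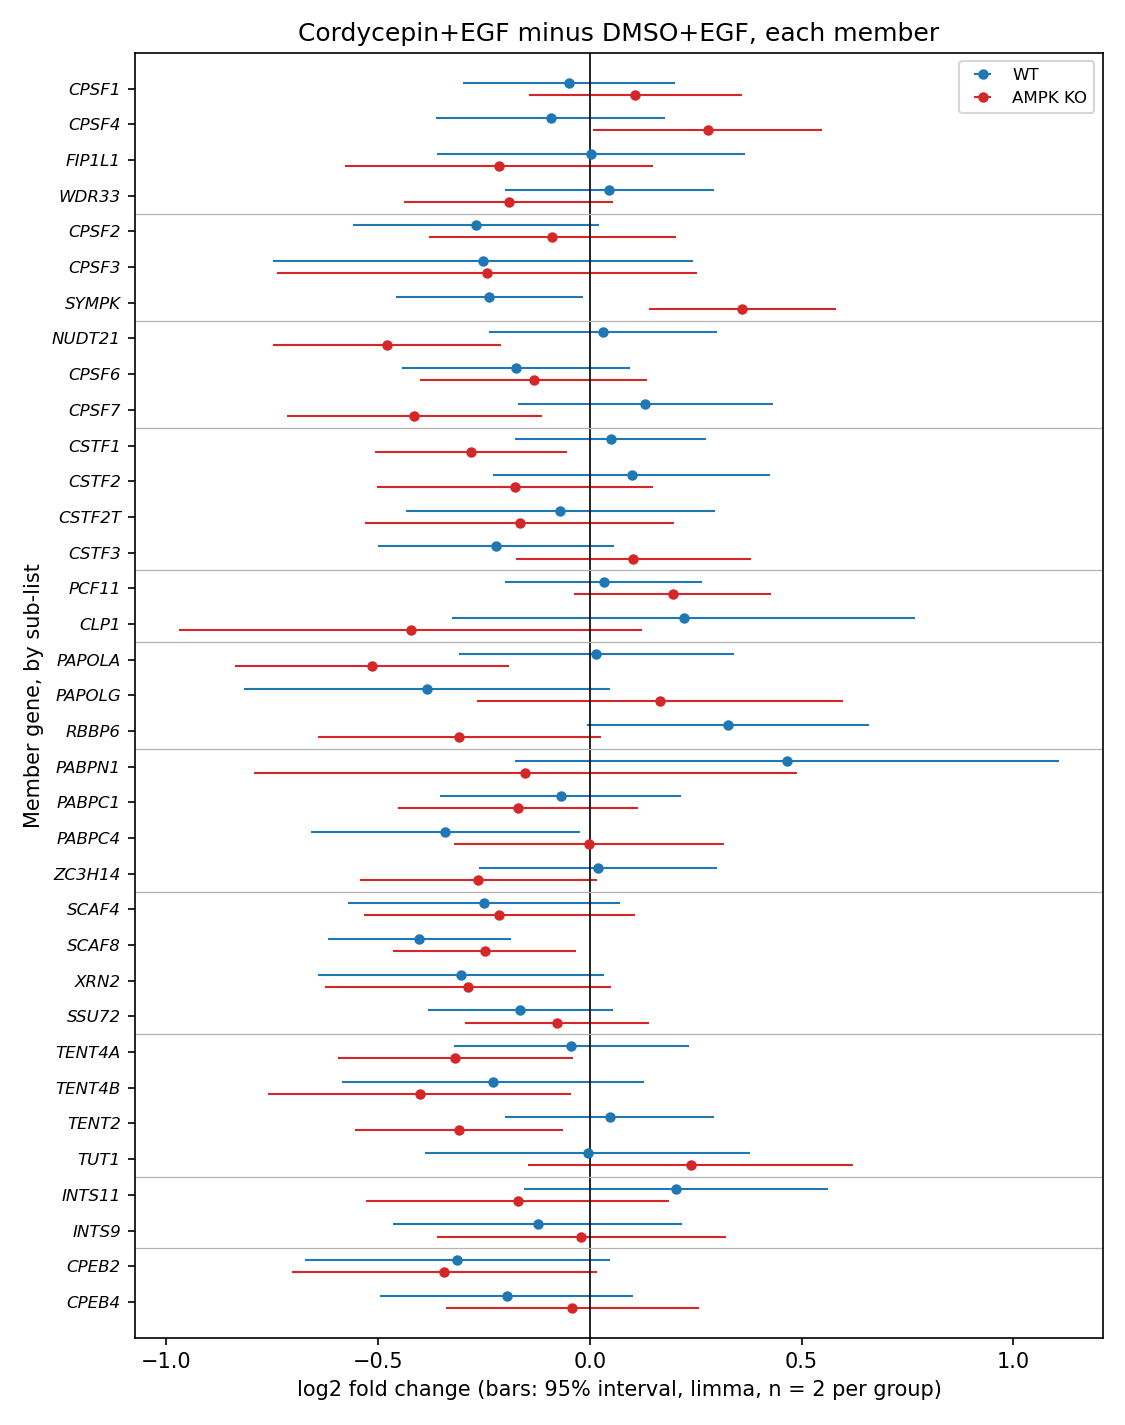
For each member, ordered by sub-list, points give the log2 fold change of cordycepin+EGF against DMSO+EGF in WT (blue) and AMPK KO (red) cells, with bars for the 95% interval from limma with 2 libraries per group. In AMPK KO 28 of 35 points lie left of 0 and SYMPK is the furthest to the right, at 0.36.

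The difference between lines in the cordycepin response reached an unadjusted p under 0.05 for 7 members, where 21.4% of all genes did, so the members' share of 20% was near the background. SYMPK alone was positive, at 0.60 (0.29 to 0.91, p 0.0019, adjusted p 0.122), and RBBP6, CPSF7, PAPOLA, NUDT21, TENT2 and CSTF1 were negative, from -0.63 for RBBP6 to -0.33 for CSTF1. With the GC correction all 7 kept an unadjusted p under 0.05.

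AMPK KO and WT cells were compared within each treatment and over the 3 treatments. In DMSO 1 member lay higher at an unadjusted p under 0.05, CPSF7 (all genes 12%), and 2 lay lower, PAPOLG and CPEB4 (all genes 9.29%). In DMSO+EGF 6 lay higher, RBBP6, PAPOLA, CPSF7, NUDT21, SCAF8 and TENT4A (all genes 11.1%), and 4 lay lower, PABPC4, CPSF1, CPSF4 and SYMPK (all genes 11.4%). In cordycepin+EGF 2 lay higher, SCAF8 and SYMPK (all genes 7.1%), and 1 lay lower, PABPN1 (all genes 6.64%). Over the 3 treatments 3 lay higher, SCAF8, RBBP6 and CPSF7 (all genes 10.9%), and 3 lay lower, PABPC4, CPSF1 and CPEB2 (all genes 9.44%). The share of members was furthest above that of all genes for those higher in DMSO+EGF, at 17.1%, or 1.54 times the background, and the other shares were between 0.24 and 1.00 times it. PAPOLG in DMSO (p 0.0801) and SYMPK in DMSO+EGF (p 0.0841) were no longer under 0.05 with the GC correction. The comparisons in DMSO+EGF share libraries with the responses to EGF and to cordycepin, so a member that is high or low in 1 DMSO+EGF group appears in several of these lists.

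Of the CPSF subunits that read the poly(A) signal, 0 of 4 passed the test in any comparison. CPSF1, the largest subunit, had 25.2 and 27.6 RPKM in WT DMSO+EGF and 19.4 and 20.4 RPKM in AMPK KO DMSO+EGF (log2 fold change -0.38, SE 0.111, p 0.00747, adjusted p 0.0977). Its groups also stood apart in cordycepin+EGF, at 24.5 and 24.9 against 20.1 and 21.4 RPKM, but overlapped in DMSO, at 19.8 and 23.99 against 20.03 and 21.6 RPKM. Over the 3 treatments the difference was -0.23 (SE 0.0639, adjusted p 0.0828). With the GC correction it was -0.24 and passed (adjusted p 0.0415). CPSF4, a zinc finger subunit that contacts the signal, had 7.27 and 6.31 RPKM in WT DMSO, 9.08 and 8.89 in WT DMSO+EGF and 7.76 and 8.53 in WT cordycepin+EGF. The AMPK KO libraries had 7.26 and 7.92, then 7.21 and 6.39, then 8.13 and 8.0 RPKM. WT libraries with EGF lay above those with DMSO (log2 fold change 0.36, SE 0.119, p 0.0153, adjusted p 0.485), while in AMPK KO cells both EGF libraries lay below both DMSO libraries (-0.14, p 0.27). WDR33, which binds the signal beside CPSF4, stayed within 6.29 to 7.66 RPKM, the narrowest relative range of all members. FIP1L1, which brings in the poly(A) polymerase, had 3.53 to 5.42 RPKM.

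The cutting module of CPSF comprises the endonuclease CPSF3, its inactive partner CPSF2 and the scaffold SYMPK. SYMPK (ENSG00000125755, chr19:45815410-45863194, minus strand) had 17.4 and 15.5 RPKM in WT DMSO, 20.03 and 20.3 in WT DMSO+EGF and 16.1 and 16.9 in WT cordycepin+EGF. For AMPK KO cells the same treatments gave 16.4 and 16.04, then 16.4 and 16.02, then 19.5 and 21.0 RPKM. The cordycepin libraries lay below the DMSO+EGF libraries in WT cells and above them in AMPK KO cells. They did not overlap in either line, which was common over all genes. The differences were -0.24 (SE 0.0973, p 0.0376, adjusted p 0.293) in WT and 0.36 (SE 0.0973, p 0.00498, adjusted p 0.0966) in AMPK KO cells. The AMPK KO difference passed under 4 of 25 alternatives (array weights, voom on recovered reads, and without WT DMSO replicate 2 or 3, with adjusted p of 0.0206 to 0.0469). The interaction passed under 5: array weights, voom on recovered reads, only the groups compared, and without WT DMSO replicate 2 or 3 (adjusted p 0.0276 each). SYMPK has a transcript of 60.6% GC, and with the GC correction the interaction was 0.64 (p 0.00517, adjusted p 0.134). CPSF3 had 16.6 to 29.5 RPKM with wide replicates, such as 22.6 and 29.5 RPKM in WT DMSO+EGF, and CPSF2 had 9.07 to 12.8 RPKM. Neither reached an unadjusted p under 0.05 in any comparison.

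CFIm is built of NUDT21, which binds UGUA elements upstream of the cut, with CPSF6 or CPSF7. NUDT21 (ENSG00000167005, chr16:56429133-56452199, minus strand) had 6.87 and 7.16 RPKM in WT DMSO, 6.52 and 6.70 in WT DMSO+EGF and 6.20 and 6.93 in WT cordycepin+EGF. The AMPK KO libraries had 8.23 and 7.48 with DMSO, 8.52 and 8.93 with DMSO+EGF and 5.49 and 6.36 with cordycepin+EGF. Thus the AMPK KO cordycepin libraries lay below those of DMSO+EGF while the WT groups overlapped. Its cordycepin difference in AMPK KO cells (log2 fold change -0.48, SE 0.119, p 0.00297, adjusted p 0.0842) had the smallest adjusted p of any member in that comparison. It passed under 3 of 25 alternatives: array weights, and without WT DMSO replicate 2 or 3 (adjusted p 0.0492 and 0.0494). CPSF7 had 26.5 and 30.01 RPKM in AMPK KO DMSO+EGF and 20.4 and 20.3 RPKM with cordycepin, without overlap (log2 fold change -0.41, SE 0.133, p 0.0125, adjusted p 0.131). Its WT libraries overlapped, at 22.3 and 20.3 and then 21.9 and 23.3 RPKM (0.13). In DMSO it had 18.2 and 23.8 RPKM in WT and 28.4 and 28.2 RPKM in AMPK KO cells. CPSF6, the other large CFIm subunit, had 25.3 to 34.5 RPKM and cordycepin differences of -0.17 (WT) and -0.13 (AMPK KO). No unadjusted p of CPSF6 was under 0.05.

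CstF, which binds the GU-rich element downstream of the cut, showed no member past the test. CSTF1 had 22.1 and 22.6 RPKM in AMPK KO DMSO+EGF and 17.7 and 17.6 RPKM in AMPK KO cordycepin+EGF, without overlap (log2 fold change -0.28, SE 0.0999, p 0.0203, adjusted p 0.16), and 18.1 and 20.9 against 18.7 and 20.4 RPKM in WT cells. CSTF2, the RNA-binding subunit, and its autosomal relative CSTF2T had 10.8 to 15.6 and 11.5 to 17.1 RPKM. The span of CSTF2T lies opposite PRKG1 on the other strand. The libraries were stranded, but whether reads were counted by strand was not known here. The same holds for other members that overlap a gene on the opposite strand, among them CPSF1, CPSF4, NUDT21, ZC3H14 and INTS11. The ratio of CSTF2 to CSTF2T was 0.79 to 1.08 over the 12 libraries. Of CFIIm, PCF11, which links cleavage to termination, had 11.2 to 13.6 RPKM. Its partner CLP1, an RNA kinase, had 3.23 to 6.27 RPKM and replicates that differed widely, at 3.79 and 6.27 RPKM in WT cordycepin+EGF.

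The poly(A) polymerase PAPOLA (ENSG00000090060, chr14:96501433-96567116, plus strand) and RBBP6, a cleavage factor with a ubiquitin ligase domain, differed most between lines with EGF. PAPOLA had 45.6 and 45.6 RPKM in WT DMSO, 32.6 and 35.6 in WT DMSO+EGF and 34.9 and 32.01 in WT cordycepin+EGF. The AMPK KO libraries had 47.6 and 36.9 with DMSO, 50.9 and 51.3 with DMSO+EGF and 31.6 and 37.5 with cordycepin+EGF. The lines stood apart only with DMSO+EGF (log2 fold change 0.59, SE 0.143, p 0.00253, adjusted p 0.0662), and overlapped with DMSO and with cordycepin+EGF. Within AMPK KO cells the cordycepin libraries lay below those of DMSO+EGF (log2 fold change -0.52, SE 0.143, p 0.0058, adjusted p 0.103), while in WT cells these groups overlapped (0.02). RBBP6 had 16.6 and 15.3 RPKM in WT DMSO+EGF and 24.2 and 24.6 RPKM in AMPK KO DMSO+EGF (log2 fold change 0.61, SE 0.147, p 0.00246, adjusted p 0.0653), and 21.4 and 17.8 against 18.98 and 18.96 RPKM in cordycepin+EGF, where the lines overlapped. For both genes this difference passed under 5 of 25 alternatives: array weights, voom on recovered reads, only the groups compared, and without WT DMSO replicate 2 or 3 (adjusted p 0.0421 and 0.0423 for PAPOLA, 0.0224 and 0.0225 for RBBP6). With the GC correction they were 0.53 and 0.58, with adjusted p of 0.0975 and 0.0961. PAPOLG, the second nuclear polymerase, had 3.88 and 2.84 RPKM in WT DMSO and 2.25 and 2.28 RPKM in AMPK KO DMSO (log2 fold change -0.49, SE 0.191, p 0.0314, adjusted p 0.196). PAPOLA exceeded PAPOLG by 10.3-fold to 21.1-fold over the 12 libraries.

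**Figure D4:**
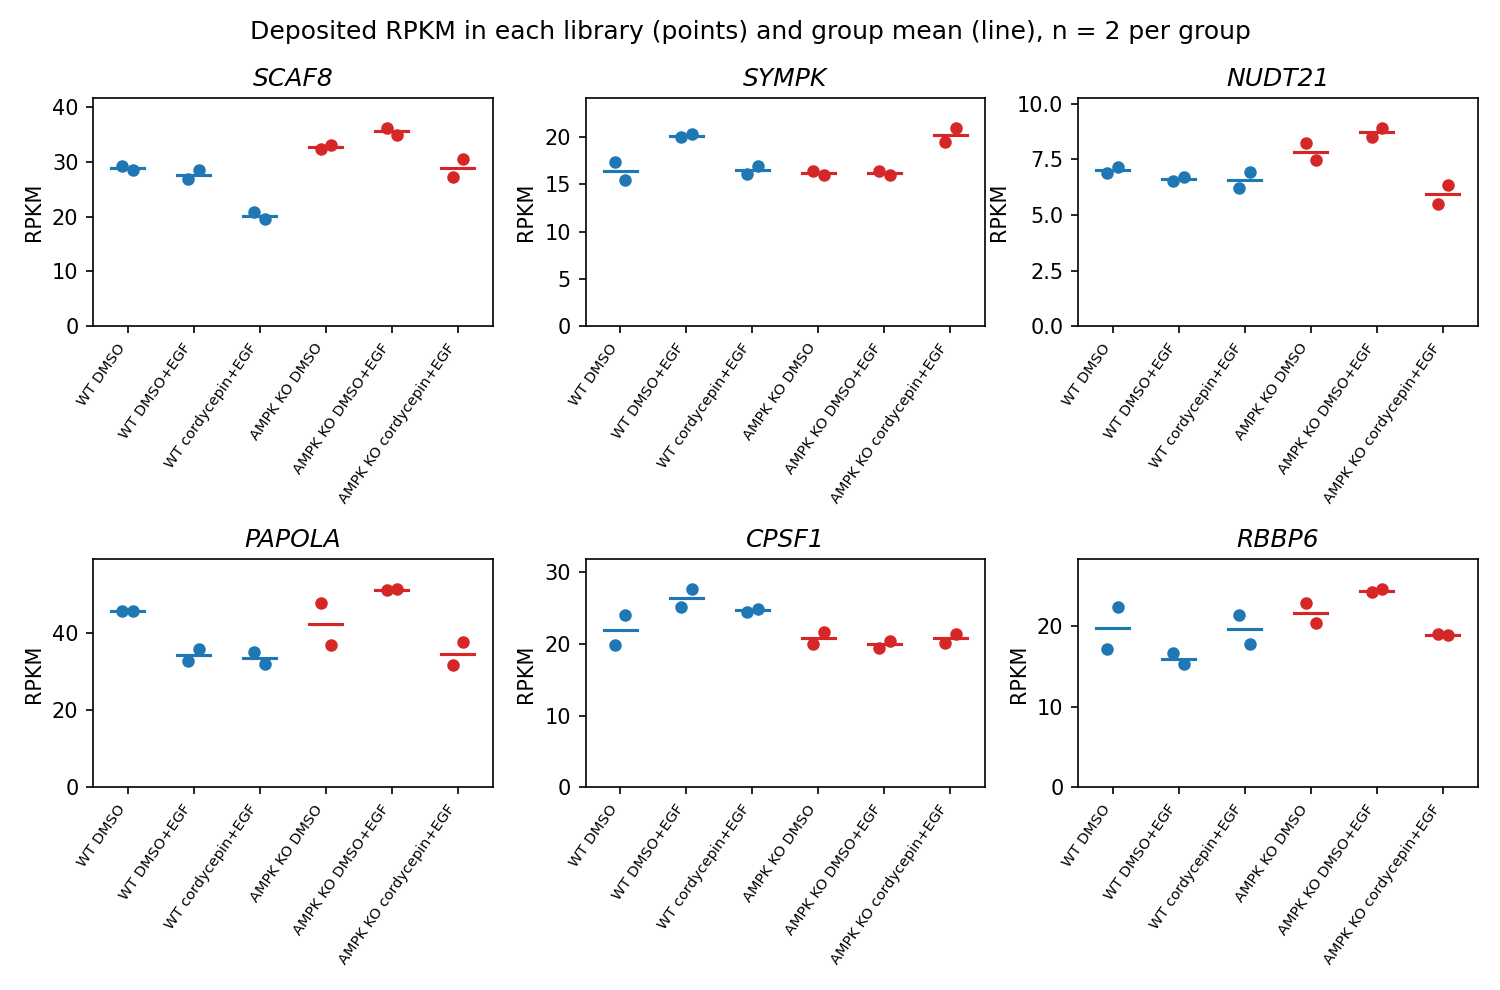
Points are the deposited RPKM of 1 library, with lines at the mean of the 2 libraries of a group (WT blue, AMPK KO red), for 6 members. SCAF8 is higher in AMPK KO within every treatment, and SYMPK has its 2 AMPK KO cordycepin+EGF libraries at 19.5 and 21.0 RPKM above the other AMPK KO libraries.

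Of the poly(A)-binding proteins, PABPC4 had 37.3 and 35.8 RPKM in WT DMSO+EGF, above its range of 23.3 to 33.4 RPKM in the other 10 libraries. The values were 27.6 and 25.8 RPKM in AMPK KO DMSO+EGF (log2 fold change -0.43, SE 0.141, p 0.0139, adjusted p 0.123) and 26.2 and 29.6 RPKM in WT cordycepin+EGF (log2 fold change -0.34, SE 0.141, p 0.038, adjusted p 0.293). PABPC1 had 123 and 127 RPKM in WT DMSO and 88.3 and 111 RPKM in AMPK KO cordycepin+EGF, the groups of highest and lowest mean, and no difference reached an unadjusted p under 0.05. PABPN1, the nuclear protein that sets tail length, had 3.89 and 7.55 RPKM in WT DMSO and 7.36 and 10.4 RPKM in WT cordycepin+EGF, so its replicates differed widely. Its difference between lines in cordycepin+EGF was -0.75, with a 95% interval of -1.39 to -0.11, and its span overlaps the readthrough gene BCL2L2-PABPN1. ZC3H14, a nuclear binder of poly(A), had 6.0 and 6.80 RPKM in WT DMSO and 4.96 and 5.35 RPKM in WT DMSO+EGF (log2 fold change -0.31, SE 0.124, p 0.0327, adjusted p 0.499).

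All 4 members of the termination sub-list had a log2 fold change below 0 with cordycepin in both lines. This sub-list includes SCAF4 and SCAF8, which are known for preventing early termination. The median of the 4 was -0.28 for WT, with -0.23 for AMPK KO cells, and SCAF8 had the lowest log2 fold change of any member in WT, at -0.40 (p 0.00229, adjusted p 0.256). In the mean of both lines it was -0.33 (SE 0.0677, p 0.000967, adjusted p 0.0655), the smallest adjusted p of any member for cordycepin, and it passed with array weights (adjusted p 0.0309). XRN2, the torpedo exonuclease, had 54.4 and 59.9 RPKM in WT DMSO+EGF against 42.6 and 47.1 with cordycepin, and 56.8 and 55.3 against 40.2 and 48.9 RPKM in AMPK KO cells. Its cordycepin groups lay below in both lines (log2 fold change -0.30, SE 0.105, p 0.0207, adjusted p 0.244 in the mean). SCAF4 had 35.6 and 30.6 against 27.5 and 26.1 RPKM in WT, and 33.2 and 34.1 against 24.3 and 32.2 RPKM in AMPK KO cells (log2 fold change -0.23, SE 0.1, p 0.0456, adjusted p 0.319 in the mean). SSU72, a phosphatase of the polymerase tail, was steady at 23.05 to 29.5 RPKM. The ratio of SCAF4 to SCAF8 was 1.07 to 1.33 in the 6 WT libraries and 0.87 to 1.06 in the 6 AMPK KO libraries. It was not tested, and since it holds SCAF8, which passed between lines, it is no separate result.

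The terminal transferases lengthen or modify tails outside the main pathway. TENT4A, which can add mixed tails to messengers, had 23.4 and 23.6 RPKM in AMPK KO DMSO+EGF and 16.8 and 19.6 RPKM with cordycepin (log2 fold change -0.32, SE 0.122, p 0.029, adjusted p 0.182). TENT4B, its relative that also marks RNAs for the nuclear exosome, had 7.65 and 8.13 and then 4.95 and 6.44 RPKM (log2 fold change -0.40, SE 0.158, p 0.0312, adjusted p 0.187). Neither pair of groups overlapped. In WT cells TENT4B had 7.37 and 7.32 RPKM against 6.09 and 5.91 RPKM with cordycepin (-0.23), and its mean over both lines was -0.32 (p 0.0199, adjusted p 0.24). TENT2, a cytoplasmic poly(A) polymerase, had 12.5 and 13.2 RPKM and with cordycepin 9.76 and 10.1 RPKM in AMPK KO cells (log2 fold change -0.31, SE 0.109, p 0.0195, adjusted p 0.157), and overlapping values of 11.5 and 10.4 and then 11.1 and 10.8 RPKM in WT cells (0.05). TUT1, the uridylyltransferase of U6 RNA, had 1.92 to 3.38 RPKM and no unadjusted p under 0.05. CPEB2 and CPEB4 bind cytoplasmic polyadenylation elements. CPEB2 had 1.99 and 2.28 RPKM in WT DMSO+EGF and 1.53 and 1.6 with cordycepin. Its AMPK KO values were 1.68 and 1.70 and, with cordycepin, 1.08 and 1.29 RPKM, so cordycepin libraries lay below in both lines (log2 fold change -0.33, SE 0.112, p 0.017, adjusted p 0.229 in the mean). CPEB4 had 6.84 and 6.42 RPKM in WT DMSO and 4.76 and 4.61 RPKM in AMPK KO DMSO (log2 fold change -0.48, SE 0.132, p 0.00551, adjusted p 0.111), without overlap. With EGF it had 6.58 and 5.91 RPKM in WT and 6.24 and 5.57 RPKM in AMPK KO cells, where the lines overlapped.

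INTS11 and INTS9 are the nuclease of Integrator, the complex that cleaves small nuclear and enhancer RNAs and early transcripts of genes. INTS11 had 18.3 to 28.4 RPKM, with wide replicates of 18.3 and 26.3 RPKM in WT DMSO, and INTS9 had 7.41 to 9.91 RPKM. Neither reached an unadjusted p under 0.05 in any comparison. The rest of the pathway was followed in 41 related genes (other Integrator subunits, the PNUTS phosphatase, further polymerase-tail binders, histone 3′ end factors and other tail enzymes), of which 39 were tested. In DMSO+EGF 1 was higher and 1 lower in AMPK KO cells at an adjusted p under 0.05, where 1.74% of all genes passed, and the same held over the 3 treatments, where 4.34% passed. The other 10 comparisons gave 0. With cordycepin 33 of the 39 lay below 0 in AMPK KO cells (median -0.25, all genes 0.06). At an unadjusted p under 0.05 there 2 lay higher and 14 lower, against 11.7% and 10.1% of all genes. RPRD1A, a binder of the polymerase tail, had 15.96 and 17.4 RPKM in WT DMSO+EGF and 26.3 and 25.5 in AMPK KO DMSO+EGF (log2 fold change 0.64, SE 0.117, p 0.000403, adjusted p 0.0416, and 0.46 with adjusted p 0.00884 over the 3 treatments). LSM10, part of the U7 particle that processes histone messengers, had 13.2 and 12.5 against 4.99 and 5.82 RPKM (log2 fold change -1.16, SE 0.191, p 0.000185, adjusted p 0.0302, and -0.68 with adjusted p 0.0124 over the 3 treatments). With cordycepin+EGF the LSM10 values of 6.63 and 8.53 RPKM in WT and 6.48 and 9.05 RPKM in AMPK KO cells overlapped.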

How the data were processed

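The 12 libraries were stranded, ribosomal RNA-depleted and sequenced as pairs of 150 bases. The authors mapped reads to GRCh38.p13, obtained gene counts with Rsubread, discarded replicate 1 of each condition and deposited RPKM values, which state no depth. FastQC stood in the submitters' processing notes. The EGF concentration was given as 15 nM or 15 µM in different places and was not resolved here. Left out were 2 lines of the table without a gene name. Of 26058 gene IDs, 26029 matched GENCODE release 44, which may differ from the authors' annotation.

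RPKM values were multiples of 1 read. With annotated gene lengths, 25082 genes (96.25%) came out whole in every library (tolerance 0.05 of a read), and 26026 once the length was searched for. These reads served only the voom alternative and the depths, and cover counting error only.

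Each library's RPKM was scaled by its upper quartile (percentile 75). The deposited values already had upper quartiles of 7.41 to 7.86 RPKM, and the study describes RPKM after upper-quartile normalisation for this experiment. In AMPK KO DMSO+EGF replicate 2 the RPKM implied a total of 13829624 reads where 14174284 were recovered. The divisor was thus no plain library total, and leaving the values as given is not an unscaled setting. Genes averaging 0.5 RPKM or more were tested on log2(scaled RPKM + 0.5) with limma 3.58.1 (R 4.3.3), using lmFit, contrasts and two-sided moderated tests from eBayes with a mean trend. All 12 libraries and 6 group means entered 1 model, which had 6 residual degrees of freedom, or 8.96 after moderation. The study called the replicates biological, and the labels name no separate cultures, so p-values measure only the spread between these libraries.

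The members, sub-lists, related genes and pairs were chosen with earlier results of these data known. Named were all 35 members, PRKAA1, PRKAA2 and up to 3 related genes per comparison with an adjusted p under 0.05. The settings varied were the pseudocount (0.1 or 1), the filter (none, or 1 RPKM), the scaling (values left as the authors gave them, or median ratios), a replicate block, eBayes without trend, array weights, voom on recovered reads, a model of only the groups compared, and each library left out. With 2 libraries per group the array weights came out equal within each group, from 0.365 in WT DMSO to 2.02 in AMPK KO DMSO+EGF. They thus weighed groups and not single libraries. Voom took the recovered totals as library sizes, without further scaling. A GC correction, which subtracted from each library the median deviation in 50 bins of transcript GC content, was added after seeing the data, with and without the block.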

Additional observations from a re-analysis of the deposited data

How the results depend on the processing

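The 16 member differences with an unadjusted p under 0.01 kept their sign in all 398 values under up to 25 alternatives, and so did the 58 with an unadjusted p under 0.05. These differences were picked in the same libraries. Many alternatives, such as leaving out a library of another group, leave a difference nearly unchanged. The members' median for cordycepin in AMPK KO cells, for example, was -0.177 without WT DMSO replicate 2 or 3. The kept signs are thus no separate support. Counts of members passing the test moved as follows. For cordycepin in AMPK KO cells (0) they were 2 with array weights and 1 with voom on recovered reads, and in the mean of both lines (0) 1 with array weights. For AMPK KO against WT in DMSO (0) the count was 2 with voom, in DMSO+EGF (0) it was 10 with array weights, 5 with voom and 4 with only the groups compared, and in cordycepin+EGF (0) it was 1 with voom. Over the 3 treatments (1) it was 3 with voom, and 2 with the GC correction, with or without the replicate block. For the cordycepin interaction (0) it was 1 each with array weights, voom and only the groups compared. The array weights were equal within each group and highest in AMPK KO DMSO+EGF (2.02), so this setting cannot mark a poor library. With each library left out in turn, counts were 0 to 0 for EGF in WT, EGF in AMPK KO, EGF in the mean of both lines, cordycepin in WT, cordycepin in the mean of both lines, AMPK KO against WT in cordycepin+EGF and the EGF interaction. They were 0 to 2 for cordycepin in AMPK KO, 0 to 3 for AMPK KO against WT in DMSO, 0 to 5 in DMSO+EGF, 0 to 4 over the 3 treatments and 0 to 1 for the cordycepin interaction. The higher counts all came without WT DMSO replicate 2 or 3, which leaves 1 library in that group, assumed to vary like the others. The 0 over the 3 treatments came without AMPK KO DMSO+EGF replicate 2 or 3. The cause was not tested. At an unadjusted p under 0.05, with each library left out, the members in either direction ranged from 1 to 7 for EGF in WT (4), 0 to 2 for EGF in AMPK KO (1), 1 to 8 for AMPK KO against WT in DMSO (3), 4 to 12 in DMSO+EGF (10), 2 to 7 in cordycepin+EGF (3), 4 to 7 over the 3 treatments (6), 1 to 7 for the EGF interaction (4) and 2 to 10 for the cordycepin interaction (7). Over all genes, calls ranged with the alternative from 1 to 704 for EGF in WT, 1 to 4 for EGF in AMPK KO, 3 to 25 in their mean, 0 to 802 for cordycepin in WT, 0 to 1379 in AMPK KO and 22 to 793 in their mean, against 5, 3, 5, 1, 104 and 213. For AMPK KO against WT they ranged from 1 to 3053 in DMSO, 6 to 5041 in DMSO+EGF, 2 to 436 in cordycepin+EGF and 306 to 2894 over the 3 treatments, against 97, 383, 26 and 957. For the EGF and cordycepin interactions they ranged from 0 to 13 and 0 to 2323, against 0 and 0.

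The median member level on the log2 scale, 3.85 in WT DMSO+EGF, was 3.81 and 3.90 with pseudocounts of 0.1 and 1 and 3.88 with RPKM as deposited. In AMPK KO DMSO+EGF it was 3.86, and then 3.82, 3.91 and 3.87, and 3.88 with median-ratio scaling. The other groups moved by less than their replicate SD.

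Whether replicate numbers pair the samples was not settled by the labels. The same-number correlation of deviations was -0.12 to 0.32 over 15 pairs of groups. It was above 0.1 in all 3 pairs of WT groups (0.14, 0.28 and 0.31), but not in every pair that involved AMPK KO groups, so the numbers were not taken to pair the libraries. A replicate block gave 1 member over the 3 treatments (SCAF8, adjusted p 0.0153) and 0 in the other 11 comparisons, as without it.

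Depth limits the low members most, with 35 to 48 reads in WT DMSO replicate 3 for TUT1, CLP1 and CPEB2.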

Other observations

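Pairs of related members held different ratios. PABPC1 exceeded PABPC4 by 2.96-fold to 4.80-fold in RPKM, TENT4A exceeded TENT4B by 2.33-fold to 3.54-fold, and CPEB2 stood at 0.21 to 0.39 of CPEB4 over the 12 libraries. CPSF6 exceeded CPSF7 in every library, by 1.01-fold to 1.89-fold. The nuclease pair CPSF3 and INTS11, of CPSF and of Integrator, had a ratio of 0.72 to 1.49, with both extremes in WT cells. The ratio of CPSF2 to INTS9, their inactive partners, was 1.05 to 1.44. These ratios are of RPKM, which depends on the exon length assumed for each gene, so they are given as values with no test.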
